A study of Mus musculus with 12 samples.

Results

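After transcription was stopped, 365 of 4736 transcripts kept more of their untreated level in embryonic stem cells (ESCs) that lacked Mettl3 than in wild-type ESCs. Another 101 kept less. Both counts come from a 2-fold rule at 4 h and 8 h on single libraries, and they changed with the scaling. These 4736 members were the entries of the deposited table of RefSeq transcripts with a level of at least 300 in both untreated ESC libraries, out of 19708 entries in all. They included the m6A writer subunit gene Wtap, the naive pluripotency genes Klf2 and Zfp42, and the short-lived regulator Mcl1, all kept longer. The rule that chose the members used the untreated level alone, so the change of loss was not part of it.

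m6A is a methyl group on adenosines of mRNA. A nuclear complex writes it, with Mettl3 as the catalytic subunit and proteins such as Wtap and Rbm15 as partners, mostly within a short motif whose commonest form is GGACU. Reader proteins of the Ythdf family bind the mark in the cytoplasm and are known to recruit the enzymes that shorten the poly(A) tail. In mouse ESCs many transcripts of pluripotency regulators carry the mark.

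Mouse cells of the C57BL/6 strain were either wild type (WT) or carried a knockout (KO) of Mettl3. ESCs were kept in serum-free medium with the cytokine LIF and a pair of small-molecule inhibitors called 2i, which hold cells in the naive state. Embryoid bodies (EBs), used here for comparison, form when ESCs clump in suspension in serum medium and start to differentiate. RNA was taken at 0, 4 and 8 h after actinomycin, a drug that blocks transcription, and the 3′ ends of poly(A) RNA were sequenced. The 6 ESC groups, WT or KO at 0, 4 or 8 h, had 1 library each, as had the 6 EB groups. How the knockout was made, whether its cells were 1 clone and whether the times shared a culture are not given in the sources used here. With 1 library a group, a difference between genotypes cannot be told apart from a difference between these cultures.

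The 6 ESC libraries held 307442 to 480158 read equivalents, a unit inferred from the steps in the deposited values. A level of 300 stood for 9.17 to 13.1 of them. Levels below are as deposited. Differences and log2 changes were computed after dividing each ESC library by a median-ratio factor, which ran from 0.841 to 1.10, so they do not follow exactly from the printed levels. Of the 10 ESC marker genes, 10 were above 0 in all 6 libraries. Their summed level was 80181 to 90614 in WT and 45870 to 52643 in KO libraries. Of the 8 trophoblast markers, 0 were above 0 in all 6 libraries and Elf5 and Tpbpa were at 0 throughout. They summed to 95.5 to 170 in WT and 435 to 594 in KO, and the part of other cells in the results was not tested. Mettl3 itself was too low to be a member. It measured 250.7, 64.8 and 112.5 in WT and 98.1, 65.4 and 41.8 in KO at 0, 4 and 8 h, or 10.9 read equivalents in untreated WT and 3.9 in untreated KO. Reads at its 3′ end check the labels only in part, since a transcript can remain where the protein is gone.

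The change of loss was measured for each transcript as the log2 ratio of a treated to the untreated library within a genotype, KO minus WT, at 4 h and at 8 h. A transcript was called kept longer where this difference was at least 1, a 2-fold change, at both times, and lost faster where it was at most -1 at both. The kept transcripts were 7.71% of the members and the lost ones 2.13%. At 4 h alone 568 members (12.0%) lay above 1 and 386 (8.15%) below -1. At 8 h alone 853 (18.0%) lay above and 321 (6.78%) below. Both times share the 0 h libraries, so an untreated value that was high or low by chance moved both differences the same way. The median difference over all members was -0.02 at 4 h and 0.12 at 8 h. Calls were split 365 to 101 after median-ratio scaling, 517 to 55 on the levels as deposited and 498 to 53 when ribosomal protein genes set the scale.

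**Figure D1:**
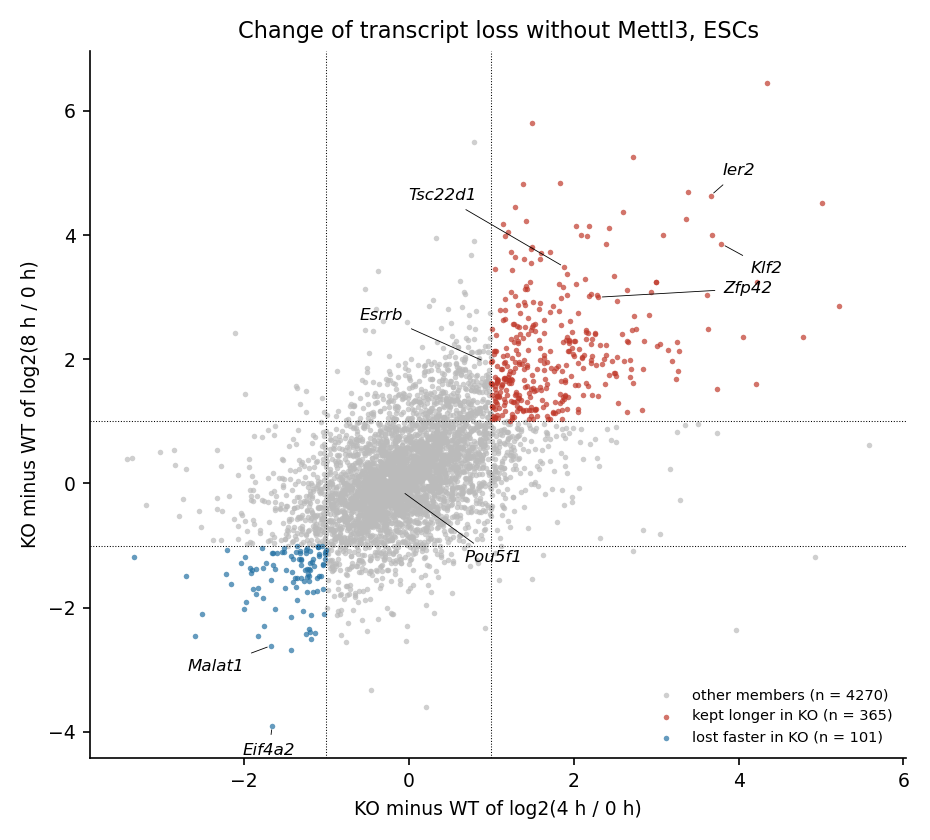
Each point is 1 of the 4736 members, with the KO minus WT difference of the log2 change from 0 h at 4 h on the x axis and at 8 h on the y axis; dotted lines mark differences of 1 and -1. The 365 transcripts kept longer (red) reach farther from the origin than the 101 lost faster (blue).

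At the median, the kept transcripts fell in WT and changed little in KO, although some, such as Pim3, fell in both. Their median log2 change in WT was -1.50 at 4 h and -1.99 at 8 h, against 0.21 and 0.04 in KO. Among the lost transcripts the KO libraries fell, by medians of -1.08 and -0.95, while WT libraries rose relative to the scale by 0.42 and 0.61. The 2 groups also differed in where they started. Untreated KO was above untreated WT for 86 of 101 lost transcripts and for 152 of 365 kept ones, beside 2133 of all 4736 members. These level differences use the same 0 h libraries as the calls and are a description.

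Counting error was large beside many differences. For 205 of the 365 kept and 48 of the 101 lost transcripts, the 95% counting interval of the difference excluded 0 at both times. In 146 kept transcripts at least 1 treated library held fewer than 3 read equivalents. Raising every such treated value to 3 read equivalents left 339 kept and 97 lost. A test was run on 12704 entries with limma, which fitted a straight line over the hours to each of the 4 conditions, EBs included. With 1 library per group, its error comes from the departure of libraries from these lines. Loss that is curved in time counts as error there, and the p-values do not measure scatter between replicates. At an adjusted p under 0.05 limma called 0 higher (0%) and 0 lower (0%) slopes in KO than in WT ESCs, with a smallest adjusted p of 0.0886 for Tsc22d1. At an unadjusted p under 0.05 there were 756 higher (5.95%) and 349 lower (2.75%) entries, 8.70% together, of which 336 and 70 were members. Without the WT 0 h library limma called 27 higher and 25 lower, and without the WT 8 h library 5 higher and 0 lower. The differences below are therefore values of single libraries with counting standard errors (SE).

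Of the 12 members among genes of the m6A machinery, 4 (33.3%) were kept longer and 1 (8.33%) was lost faster. Over all members these shares were 7.71% and 2.13%. The list had medians of 0.05 at 4 h and 1.00 at 8 h, with 6 members above 0 at both times and 4 below. Wtap, which holds the writer complex together, measured 1482, 473 and 176 in WT at the 3 times, in that order, and 1254, 1212 and 1395 in KO. WT lost most of the transcript while the 3 KO libraries stayed close to each other. The difference was 1.39 (SE 0.48) at 4 h and 2.92 (SE 0.69) at 8 h.

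The readers Ythdf1 and Ythdf3 were also kept longer. Ythdf1 measured 509, 119 and 141 in WT and 947, 1104 and 712 in KO, a difference of 2.05 (SE 0.76) at 4 h and 1.15 (SE 0.81) at 8 h. Ythdf3 gave 1.37 (SE 0.65) and 1.93 (SE 0.90), and its measured entry is a noncoding transcript of the gene. Rbm15, an adaptor that brings the writer complex to RNA, measured 497, 167 and 93.6 in WT and 826, 1451 and 1068 in KO. The last WT value stood for fewer than 3 read equivalents, so no fold is given. Ythdf2, the reader best known for triggering decay, was not called, at 0.43 and 1.06. The lost member was Igf2bp2, a reader that stabilizes its targets. It measured 684, 1035 and 820 in WT and 1292, 705 and 848 in KO, so it started higher in KO and ended near WT. On the levels as deposited it was not called, and the list had 0 lost.

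The naive pluripotency list had 17 members, of which 4 (Klf2, Klf4, Zfp42 and Tbx3) were kept longer (23.5%) and 0 lost faster. Over all members 7.71% were kept and 2.13% lost. On the levels as deposited 7 were kept, and 6 with equal column totals or with ribosomal protein scaling. Klf2, a transcription factor of the naive network, measured 5550, 214 and 125 in WT and 13480, 8516 and 5555 in KO. At 8 h the WT library held 3.82 read equivalents of Klf2 and the KO library 207.1. Each KO value was above its WT counterpart at the same hour, and the gap widened from 0 h to 4 h. The difference was 3.79 (SE 0.49) at 4 h and 3.86 (SE 0.71) at 8 h.

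Zfp42, which encodes the marker protein Rex1, showed the same order of loss from a different start. It measured 8661, 977 and 408 in WT and 4011, 2554 and 1833 in KO. KO began below WT and ended above it. The difference was 2.30 (SE 0.31) at 4 h and 3.00 (SE 0.46) at 8 h. Tbx3, another factor of the network, measured 1434, 310 and 235 in WT and 510, 533 and 389 in KO, with differences of 2.05 (SE 0.64) and 1.93 (SE 0.74). Klf4 fell from 2547 to 235 and then 62.8 in WT, and from 2008 to 981 and 528 in KO. The last WT value again stood for fewer than 3 read equivalents.

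The other pluripotency factors did not pass at both times. Esrrb came close, at 0.92 (SE 0.28) and 1.96 (SE 0.36), with 3186, 2584 and 959 in WT and 1980, 3485 and 2792 in KO. Sox2 gave 1.89 (SE 0.52) at 4 h and 0.42 (SE 0.52) at 8 h. Nanog gave -0.11 (SE 0.27) and 0.38 (SE 0.30), and Pou5f1, which encodes Oct4, gave -0.09 (SE 0.10) and -0.12 (SE 0.09). Pou5f1 was higher in the treated than in the untreated libraries of both genotypes, at 32682, 41599 and 41154 in WT and 15832, 21655 and 21898 in KO. Its log2 changes relative to the scale were 0.58 and 0.70 in WT and 0.50 and 0.58 in KO. Tfcp2l1 went the other way, at -0.64 (SE 0.28) and -0.998 (SE 0.33). Over the naive list the median was -0.05 at 4 h and 1.33 at 8 h, so it stood apart from all members at the later time alone. Lefty2, a secreted inhibitor of Nodal, was the kept transcript among 15 core pluripotency members, at 1.04 (SE 0.43) and 1.03 (SE 0.47). That share, 6.67%, is close to the 7.71% of all members.

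**Figure D2:**
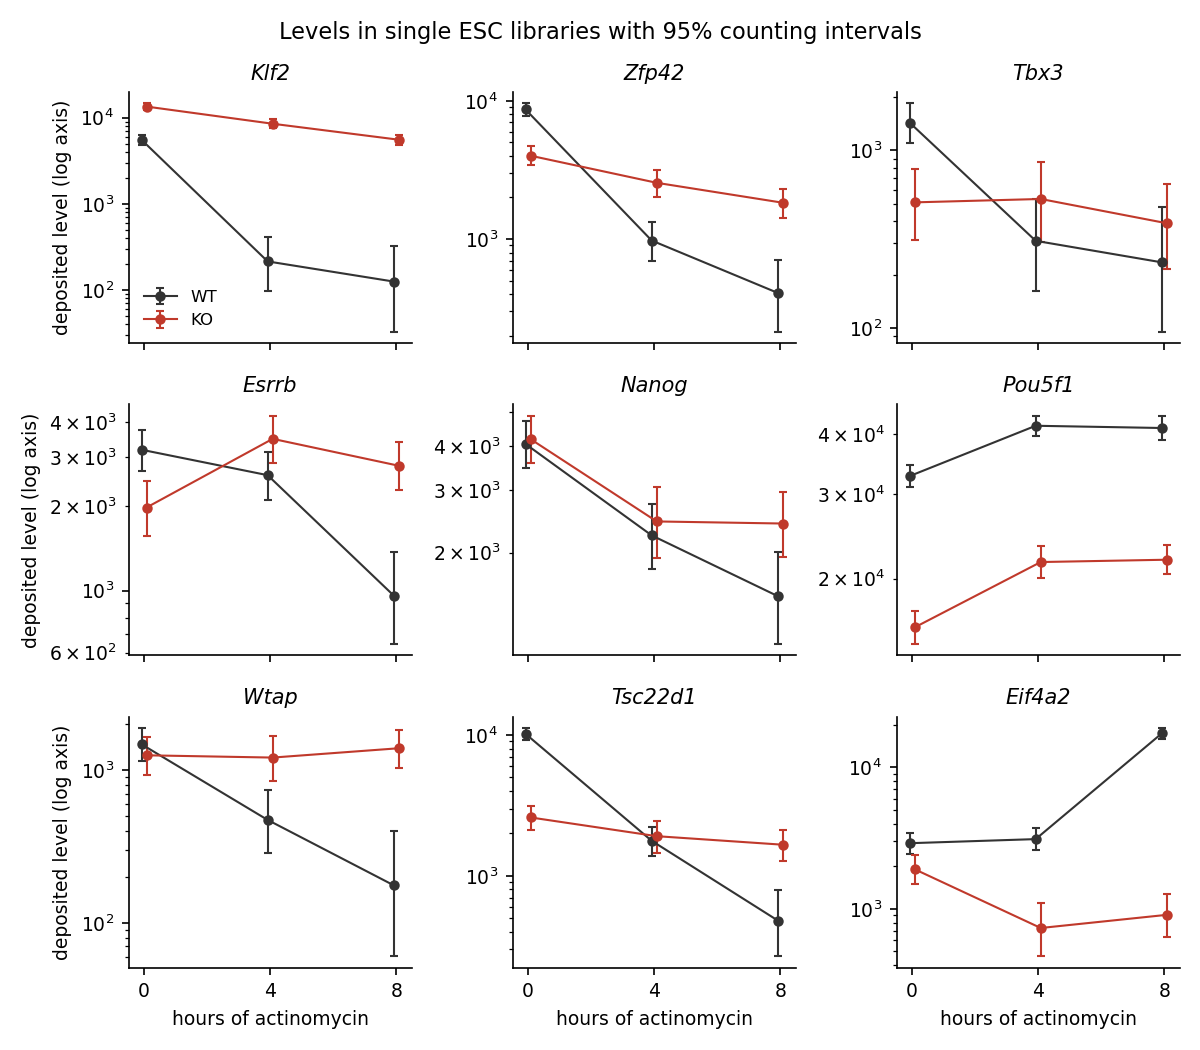
Deposited level (log axis) against hours of actinomycin for 9 transcripts in WT (black) and KO (red) ESCs; each point is 1 library and bars are 95% counting intervals. Klf2, Zfp42, Wtap and Tsc22d1 fall in WT and less in KO, Pou5f1 is higher at 4 and 8 h than at 0 h in both, and Eif4a2 rises in WT at 8 h to 17439.

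The sites below show where the commonest m6A motif lies in transcripts that carry these results. GGACT was searched on the transcript strand of GENCODE M21 models, and the motif nearest to the stop codon is shown in capitals with 10 bases on each side. The presence of the letters is a description and was not matched to a measured mark.
Klf2, chr8:72319475-72319499, plus strand, coding: acaacgtgttGGACTtcatcctctc
Zfp42, chr8:43295338-43295362, minus strand, 3′ untranslated region: aaggggatggGGACTtttgcatacg
Tbx3, chr5:119682908-119682932, plus strand, coding: cggtggctgtGGACTcggggtcgga
Mcl1, chr3:95660832-95660856, plus strand, 3′ untranslated region: gtgcaataggGGACTcttaaagctc
Id1, chr2:152737027-152737051, plus strand, 3′ untranslated region: gggaccagatGGACTccagcccttc
Igf2bp2, chr16:22076074-22076098, minus strand, coding: cttttcgactGGACTgtctgtgctt
Eif4a2, chr16:23113622-23113646, plus strand, 3′ untranslated region: atatacttgtGGACTaaaagatata
In Mcl1 the motif began 19 bases after the stop codon and in Id1 24 bases after it, whereas in Klf2 the single GGACT lay 933 bases before it. Igf2bp2 and Eif4a2, both lost faster, held the motif as well. GGACT occurred in 95.3% of kept, 94.0% of lost and 88.7% of all members with a transcript model.

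Short-lived regulators formed the list with the largest share of kept transcripts among lists of at least 20 members. Of the 21 members of the immediate early list, 7 (33.3%, beside 7.71% of all members) were kept longer and 0 lost faster. In this list 17 lay above 0 at both times, beside 1786 of all 4736. The medians were 1.65 at 4 h and 1.42 at 8 h. Mcl1, an antiapoptotic factor, measured 2902, 306 and 368 in WT and 2144, 1756 and 2145 in KO. It dropped about as far by 4 h as by 8 h in WT and kept nearly its full level in KO, a difference of 2.74 (SE 0.49) and 2.70 (SE 0.49).

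Id1 and Id3, targets of BMP signalling that restrain differentiation factors, were both kept. Id1 measured 1952, 438 and 376 in WT and 392.3, 439 and 374 in KO. The treated levels were nearly the same in both genotypes, so the Id1 call came mostly from the untreated libraries. The difference was 2.11 (SE 0.64) and 2.03 (SE 0.68). Id3 gave 2.20 (SE 0.85) and 2.24 (SE 0.92), with 658 in untreated WT and 305 in untreated KO. Ier2, a growth-factor response gene with 1 exon, measured 3055, 141 and 130 in WT and 657, 459 and 878 in KO. KO lacked the drop seen in WT, and the difference was 3.66 (SE 0.75) and 4.63 (SE 0.79).

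Pim3, a kinase gene that responds to LIF, fell in both genotypes. It measured 5838, 245 and 119 in WT and 3588, 676 and 398 in KO, a difference of 1.95 (SE 0.56) and 2.13 (SE 0.82). Mycn, a proliferation factor of the Myc family, measured 1296, 72.8 and 24.9 in WT and 2687, 2417 and 1264 in KO. Both treated WT values rested on fewer than 3 read equivalents. Of the 6 members of the LIF, Stat3 and ERK list, 3 (50%, beside 7.71% of all members) were kept longer and 0 lost. The kept ones were Ier2, Pim3 and Dusp1. Ier2 and Pim3 also belong to the immediate early list. Dusp1 was not called with a pseudocount of 5 ppm. Zfp36l1 encodes a protein that binds AU-rich elements and speeds decay. It was the 1 kept transcript among 13 members of that class, at 1.85 (SE 0.60) and 2.55 (SE 0.81). The share kept in the class, 7.69%, is that of all members, 7.71%, within rounding of 1 transcript.

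Of 16 Wnt, Nodal and BMP members, 4 were kept (25.0%, beside 7.71% of all members). Id1, Id3 and Lefty2 among them are already counted in lists above. The other was the Wnt receptor gene Fzd5, with 1361, 208 and 292 in WT and 911, 660 and 714 in KO. The Fzd5 difference was 2.02 (SE 0.65) and 1.58 (SE 0.62). Of 18 p53 pathway members, 3 were kept (16.7%), or 5 on the levels as deposited and 6 with ribosomal protein scaling. Phlda3, an inhibitor of Akt, measured 1555, 396 and 201 in WT and 1859, 2280 and 1985 in KO, at 2.06 (SE 0.46) and 2.75 (SE 0.63). Ei24 gave 1.42 (SE 0.47) and 1.19 (SE 0.53). Ddit4 lay just outside the rule, at 1.00 and 2.03, while Pop1 with 1.00 and 1.96 lay just inside it. On the other side Fbrs, at -1.004 and -1.07, was just lost and Gbf1, at -1.47 and -0.9997, just not. At the level floor Usp37, with 300 in untreated KO, was the last member in and Sec22a, with 300 in untreated WT, the first out.

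Of 46 zinc-finger genes with Zfp symbols, 7 were kept (15.2%, beside 7.71% of all members) and 0 lost, with medians of 0.50 and 0.62. Among the kept, Zfp42 and Zfp36l1 are already counted in lists above. On the levels as deposited 12 were kept. Zfp553 measured 2015, 320 and 236 in WT and 893, 732 and 644 in KO, a difference of 2.15 (SE 0.57) and 2.33 (SE 0.66). Of 77 ubiquitin ligase and protease genes, 9 were kept (11.7%) and 1 lost (1.30%), beside 7.71% and 2.13% of all members. Their medians of 0.14 and 0.23 lay near the -0.02 and 0.12 of all members. Fbxl5, a ligase subunit that senses iron, gave 2.50 (SE 0.89) and 1.78 (SE 0.76).

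Mitochondrial ribosomal protein genes had 6 kept and 1 lost of 67, shares of 8.96% and 1.49% that are close to the 7.71% and 2.13% of all members, with medians of 0.08 at 4 h and 0.53 at 8 h. Mrpl43, a protein of the large subunit, measured 771, 235 and 141 in WT and 2165, 3089 and 2399 in KO, at 2.00 (SE 0.56) and 2.29 (SE 0.74). Mrps30 and Mrpl44 gave 2.21 (SE 0.51) and 1.91 (SE 0.56) at 4 h and 1.98 (SE 0.62) and 1.91 (SE 0.78) at 8 h. Subunits of Mediator and Integrator, which act on RNA polymerase II, had 3 kept of 27 (11.1%, beside 7.71% of all members). Med28 gave 1.89 (SE 0.49) and 1.42 (SE 0.58). Ints5 measured 1168, 302 and 55.6 in WT and 1067, 1464 and 1209 in KO, with the last WT value under 3 read equivalents.

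Abundant housekeeping transcripts were seldom called. A transcript that does not fall in WT has little room for a kept call. For cytoplasmic ribosomal protein members the median log2 change in WT was 0.57 at 4 h and 0.65 at 8 h. Of 83 cytoplasmic ribosomal protein members, 0 were kept and 0 lost, with medians of -0.31 at 4 h and -0.13 at 8 h, or -0.28 and -0.25 below the median of all members. A scaling factor moves all transcripts almost alike, so the choice of scaling could hardly alter this difference from all members. Rps19 measured 18561, 28013 and 25691 in WT and 21395, 23764 and 22281 in KO, at -0.63 (SE 0.10) and -0.67 (SE 0.10). Of 83 oxidative phosphorylation members 1 was kept, and of 18 glycolysis and 18 tRNA synthetase members 0 were called in either direction. At the shares over all members, 7.71% kept and 2.13% lost, lists of 18 or 19 members would hold few calls. DNA methylation and Polycomb genes had 0 calls of 19 and medians of 0.06 and 0.52, but 3 were kept on the levels as deposited and 2 each with equal column totals and with ribosomal protein scaling. Tet2, an enzyme that oxidizes methylcytosine, measured 2586, 1124 and 610 in WT and 377, 365 and 502 in KO, at 0.96 (SE 0.61) and 2.22 (SE 0.61).

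Of 37 members of the RNA decay machinery 3 were kept and 1 lost, shares of 8.11% and 2.70% beside 7.71% and 2.13% of all members. On the levels as deposited 7 were kept. Exosc4, a core subunit of the exosome, measured 999, 314 and 120 in WT and 2091, 2209 and 1862 in KO, at 1.53 (SE 0.51) and 2.56 (SE 0.78). Cnot10, a subunit of the deadenylase complex, was lost, at -1.22 (SE 0.49) and -1.46 (SE 0.59), though with ribosomal protein scaling its 4 h value was -0.96 and the call ended. The proteasome had 2 kept of 43 (4.65%), chaperones 2 of 42 (4.76%), cell cycle genes 1 of 36 (2.78%) and solute carriers 2 of 57 (3.51%) with 1 lost. With ribosomal protein scaling 4 chaperones and 6 solute carriers were kept. Splicing regulators of the SR and hnRNP families had 1 lost of 32, Hnrnph3, and 0 kept, and Hnrnph3 gave -0.95 at 4 h with ribosomal protein scaling. Noncoding entries had 8 kept and 3 lost of 97, shares of 8.25% and 3.09% beside 7.71% and 2.13% of all members. Ythdf3 among the kept is already counted in the m6A list above. Cholesterol synthesis had 0 calls of 12.

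**Figure D3:**
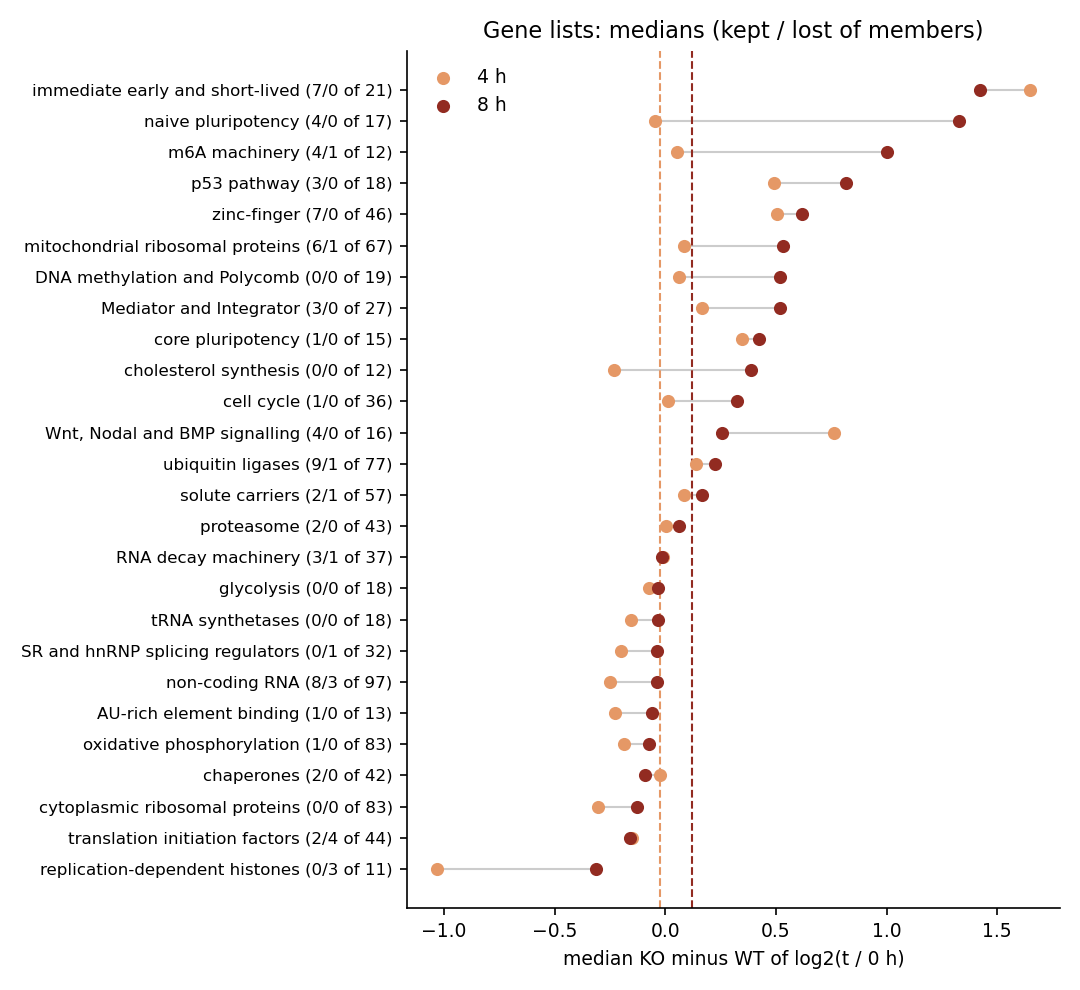
Median KO minus WT difference at 4 h (orange) and 8 h (dark red) for gene lists with at least 10 members, with kept and lost counts of members in parentheses; dashed lines are the medians of all members, -0.02 and 0.12. The immediate early, naive pluripotency and m6A machinery lists have the highest 8 h medians, at 1.42, 1.33 and 1.00.

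The largest kept differences often rested on WT libraries near 0. By the smaller of the differences at 4 h and 8 h, the first 12 included Kcnk5, Trp53rkb, Klf2, Mycn, Ier2, Bloc1s4, Tpst2, Slc45a4, Cited2, Tmem11 and Dyrk3. Kcnk5, a potassium channel gene, measured 816, 0 and 0 in WT and 735, 254 and 168 in KO. Trp53rkb, a kinase gene, measured 367, 24.7 and 0 in WT and 1069, 2163 and 2152 in KO. WT fell to the limit of detection in both cases. Cited2, a transcriptional coregulator, measured 1225, 32.7 and 32.7 in WT and 755, 342 and 233 in KO.

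Tmem11, an inner mitochondrial membrane protein, had at least 3 read equivalents in each library. It measured 1575, 186 and 126 in WT and 3849, 4318 and 3656 in KO, and the difference was 3.00 (SE 0.56) and 3.24 (SE 0.74). Tsc22d1, a transcriptional regulator, had the smallest limma p. It measured 10197, 1774 and 482 in WT and 2599, 1913 and 1664 in KO. WT started above KO and ended below it. The difference was 1.89 (SE 0.30) at 4 h and 3.49 (SE 0.44) at 8 h, and limma put the slope difference at 0.44 (SE 0.07) log2 units per hour. Taf5l, a subunit of a histone acetylase complex, followed Trp53rkb in the order of limma p among higher slopes, with 918, 254 and 66.7 in WT and 2404, 2334 and 2818 in KO.

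Among the transcripts lost faster, the 12 with the largest differences were 5730408K05Rik, Khdrbs3, Wdhd1, Timeless, Pdgfrl, Mpp1, Catsperd, Hltf, Lgr5, Spdye4a, Malat1 and Eif4a2. The first of them, 5730408K05Rik, rose in WT from 537 to 1061 and 1522 and measured 1228, 451 and 748 in KO, at -2.59 (SE 0.57) and -2.45 (SE 0.50). Pdgfrl, a receptor-like gene, measured 680, 563 and 456 in WT and 2900, 763 and 417 in KO. WT changed little while KO fell from above it, and the difference was -1.83 (SE 0.51) and -2.46 (SE 0.60). Lgr5, a receptor that raises Wnt signalling, measured 753, 784 and 761 in WT and 1646, 521 and 601 in KO, at -1.89 (SE 0.53) and -1.71 (SE 0.52).

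Wdhd1, which loads DNA polymerase at replication forks, measured 354, 453 and 304 in WT and 572, 202 and 137 in KO, at -1.995 (SE 0.80) and -2.03 (SE 0.89). Timeless, a fork protection factor, gave -1.97 (SE 0.84) and -1.91 (SE 0.92). Hltf, a helicase-like DNA translocase, gave -1.75 (SE 0.75) and -2.30 (SE 0.75). Catsperd, a subunit gene of the sperm calcium channel, had the smallest counting error of the 12, with 4397, 5230 and 5263 in WT and 10011, 3979 and 3983 in KO, at -1.77 (SE 0.21) and -1.84 (SE 0.21).

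For Malat1 and Eif4a2 the WT libraries rose under actinomycin. Malat1, a nuclear long noncoding RNA, measured 525, 1377 and 1888 in WT and 831, 773 and 574 in KO, at -1.67 (SE 0.52) and -2.61 (SE 0.53). Eif4a2, an RNA helicase of translation initiation, measured 2912, 3114 and 17439 in WT and 1907, 732 and 907 in KO. The WT value at 8 h stood above the other 5 libraries. The difference was -1.66 (SE 0.39) at 4 h and -3.90 (SE 0.33) at 8 h. These were 2 of the 3 transcripts with the smallest limma p among lower slopes. The other was Ankmy2, with 395, 331 and 285 in WT and 398, 274 and 26.3 in KO, the last value under 3 read equivalents.

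Translation initiation factors were the list with the most lost members by count, 4 of 44 (9.09%), beside 2 kept (4.55%). The shares over all members were 2.13% lost and 7.71% kept. By share, replication-dependent histones had more lost (27.3%). Besides Eif4a2 the lost ones were Eif3e, Eif2b1 and Eif1b. Eif3e, a subunit of the factor that joins mRNA to the small ribosomal subunit, measured 3884, 5430 and 4300 in WT and 3977, 2860 and 2087 in KO, at -1.15 (SE 0.24) and -1.33 (SE 0.26), and its 4 h value was -0.96 on the levels as deposited. Eif1, which sets start codon choice, was kept, with 4032, 3395 and 1636 in WT and 3293, 7044 and 5123 in KO, at 1.15 (SE 0.23) and 1.68 (SE 0.28). The other kept factor was Eif1a. The number of lost factors was 1 on the levels as deposited and 2 with ribosomal protein scaling. Replication-dependent histones, whose mature mRNA mostly lacks a poly(A) tail, had 3 lost of 11 members. All 3 (H2aw, H2ac4 and H2bc8) held fewer than 3 read equivalents in a treated library, and 0 of them passed with a pseudocount of 5 ppm.

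Transcript structure, which played no part in choosing members or calls, varied with the share kept. Transcripts with 1 to 5 exons were kept in 15.3% of cases (192 of 1251), those with 6 to 9 in 6.73%, with 10 to 15 in 4.24% and with 16 or more in 3.72%. The share lost ran the other way, from 1.20% to 3.53%. The median was 5 exons for kept, 12 for lost and 9 for all members. Klf2 with 3 exons, Tmem11 with 2 and Ier2 with 1 lie at one end, and Timeless with 29 and Wdhd1 with 25 at the other. Of the kept, 26 (7.16%) had a single exon, beside 136 of all members (2.89%).

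The share kept also varied with the last exon and with GGACT. It was 2.72% where the last exon had at most 475 bases and 10.4% where it had at least 1972. By GGACT per kilobase, the shares over 4 equal classes from the lowest to the highest were 5.45%, 6.89%, 6.89% and 11.7%. A GGACT within 200 bases of the stop codon was present in 51.5% of kept, 37.4% of lost and 39.7% of all members with a coding model. By GC content of the last 300 bases, which can affect amplification, the shares kept were 7.55%, 7.36%, 7.50% and 8.51%, so they varied little. The shares lost varied more, at 2.85%, 3.05%, 1.10% and 1.49% from the lowest GC class to the highest. The AU-rich motif ATTTA, per kilobase of the 3′ untranslated region, gave 8.54%, 8.26% and 6.61%. These features overlap with each other, and they are given as shares with no test.

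Level and rate of loss moved with the calls too. In the highest of 4 equal classes of untreated WT level 2.96% were kept and 0.68% lost, while in the lowest 9.19% were kept and 4.47% lost. Counting error is larger at low level, and its part in these shares was not tested. How fast a transcript fell in WT EBs, a set of libraries that the calls did not use, was the feature with the widest range. It is not independent of the calls, since a kept call needs a greater fall in WT than in KO ESCs. Over its 4 classes, from most to least fall, the median WT ESC change at 8 h was -0.97, -0.05, 0.26 and 0.39. The share kept in ESCs was 16.6% in the class of 4 that fell most in WT EBs, then 6.21%, 2.19% and 1.84%. Within the class that fell most, 88 of 271 transcripts with 5 exons or fewer were kept (32.5%) and 56 of 597 with more exons (9.38%). In the class that fell least these shares were 1.93% and 1.82%.

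**Figure D4:**
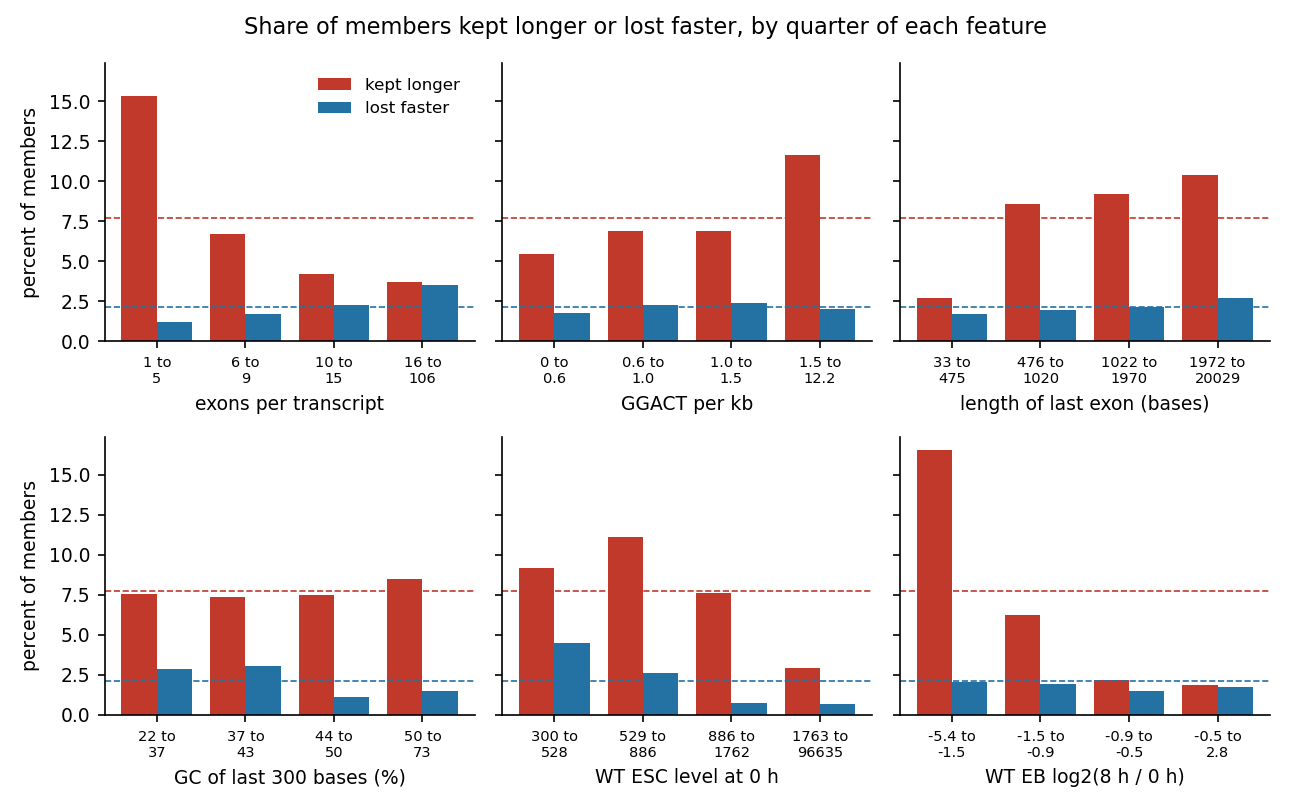
Percent of members kept longer (red) or lost faster (blue) in KO ESCs, in 4 equal classes of 6 features; dashed lines are the shares over all members, 7.71% and 2.13%. The share kept falls with exon number and with slower loss in WT EBs, rises with last exon length and GGACT density, and is nearly level over GC content.

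In EBs, whose libraries are separate from those of ESCs, 3477 of the members also had a level of at least 300 in both untreated libraries. Of these, 291 were kept longer in KO EBs (8.37%) and 8 lost faster (0.230%). Kept in both cell types were 74, which is 31.8% of the 233 kept in ESCs and 25.4% of the 291 kept in EBs. Over all shared members, 8.37% were kept in EBs and 6.70% in ESCs. Of the 63 lost faster in ESCs, 0 were lost and 2 were kept in EBs. The whole distribution sat higher in EBs, with a median difference of 0.77 at 8 h over shared members. Against that, the ESC-kept transcripts had an EB median of 1.22 and the ESC-lost ones 0.32. On the levels as deposited 623 of the shared members were kept in EBs (17.9%), and with equal column totals 147 (4.23%). The share of ESC-kept transcripts that were kept in EBs was then 44.3% and 20.4%. Pearson's r across the 3477 transcripts was 0.30 at 4 h and 0.26 at 8 h, where each point shares its 0 h libraries with all others.

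Klf2 led the transcripts kept in both, with 3836, 307 and 151 in WT EBs and 5969, 2912 and 1949 in KO EBs. Its EB difference was 2.31 at 4 h and 2.52 at 8 h. Next came Nup62, a nuclear pore protein, with 2.25 (SE 0.50) and 2.43 (SE 0.52) in ESCs and 3.19 and 2.48 in EBs. Tmem11 gave 2.51 and 2.20 in EBs, Tsc22d1 1.54 and 3.48, and Wtap 1.05 and 2.38. Zfp42 was kept in EBs as well, at 1.38 and 1.64. Klf4 and Tbx3 were not, at 0.35 and -0.19 and at 0.38 and -0.50. Esrrb, just short of the rule in ESCs, gave 2.01 and 3.15 in EBs.

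Whether the change differed between cell types was tested with the limma contrast of slope differences, EBs minus ESCs. It called 0 of 12704 entries (0%) at an adjusted p under 0.05, with a smallest adjusted p of 0.845 for Mrpl15, and 738 (5.81%) at an unadjusted p under 0.05. No transcript can therefore be called particular to ESCs. For Klf4 the contrast was -0.40 (SE 0.14) log2 units per hour, and for Eif4a2 0.44 (SE 0.15).

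**Figure D5:**
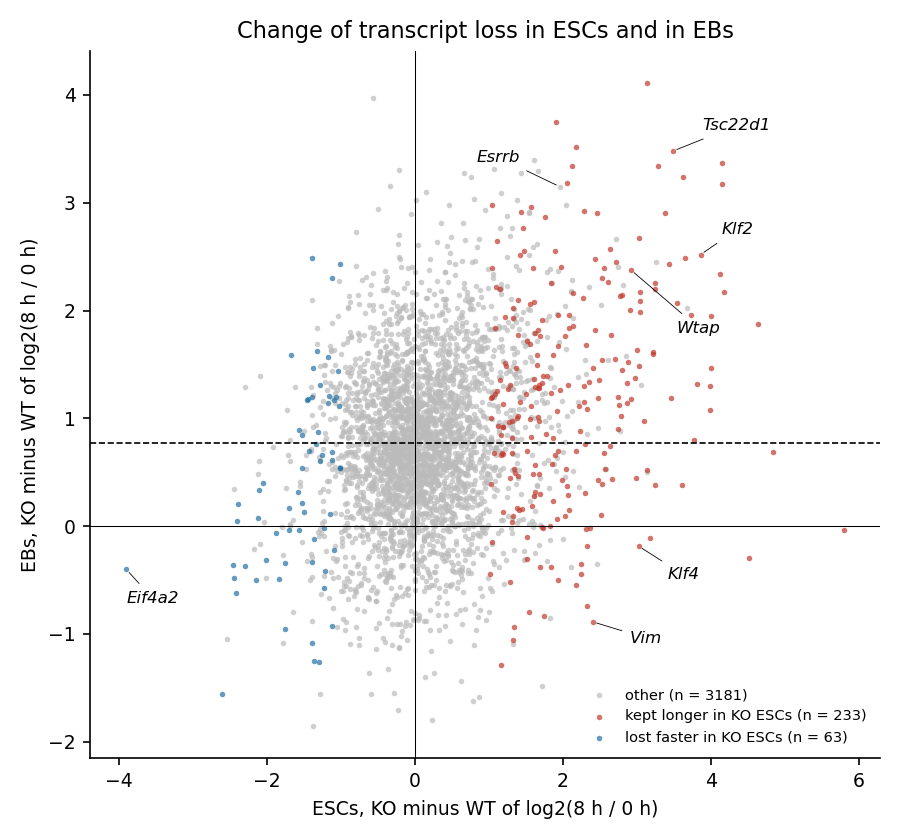
KO minus WT difference of the log2 change from 0 h to 8 h in ESCs (x axis) and in EBs (y axis) for the 3477 shared members, coloured by the ESC call; the dashed line is the EB median of 0.77. Klf2 and Tsc22d1 lie high on both axes, Klf4 and Vim on the ESC axis.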

How the data were processed

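The authors deposited a table with 1 row per RefSeq transcript and 1 column for each of 12 libraries, holding a normalized signal. The submitters' processing notes list CASAVA (version 1.8.2), Bowtie, Bowtie2 (version 2.1.0) and the build mm10. The counting and scaling steps are not given in the sources used here. Per the labels' protocols, RNA was fragmented, 3′ ends were selected on poly(dT) and strand was kept. Of 19746 rows, 38 duplicates were dropped. Each cell type's libraries were scaled by median ratios. Differences are of log2 values after adding a pseudocount of 8.58 (1 ppm of the average library total), so changes of low transcripts are understated. Counting SEs came from read equivalents: 50 value steps were taken as 1 read, which the values imply and no label states, and at least 99.8% of low values lay on such steps. PCR copies could not be told from molecules, so these SEs cover counting alone. Whole counts were not recovered, so no count model was run.

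limma 3.58.1 (R 4.3.3, trended prior) was fitted to all 12 libraries, on entries averaging 42.9 (5 ppm) or more, with Benjamini-Hochberg adjustment, and was tested on simulated data. Python 3.11.15 did the rest. Features came from GENCODE M21 models (GRCm38), found for 99.2% of members. Each sample's group came from its title. Members, 32 gene lists and tests were chosen with earlier results of these data known. Named are the 12 largest differences each way (1 is not reported here), the 3 smallest limma p each way, 10 set genes and up to 4 per list; Igf2bp2, Ythdf2, Eif1a, Eif1b, Nup62, Mrpl15 and the threshold neighbours were named after their values were seen. Alternatives covered scaling, pseudocount, filters, fold, level floor and the limma design.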

Additional observations from a re-analysis of the deposited data

Results flagged for a closer look

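Some transcripts named above had differences of opposite sign in the 2 cell types, at both 4 h and 8 h. The signs are taken against 0. In EBs the median over all shared members was itself 0.25 at 4 h and 0.77 at 8 h. For each of them limma's EB minus ESC contrast had an adjusted p of at least 0.845. Vim, an intermediate filament gene, was kept longer in KO ESCs, at 1.35 (SE 0.55) and 2.40 (SE 0.62), while in EBs it gave -0.56 and -0.89. It measured 1392, 939 and 428 in WT ESCs and 394, 785 and 783 in KO ESCs, against 1181, 1166 and 1107 in WT EBs and 470, 378 and 331 in KO EBs. Spdye4a, lost faster in KO ESCs at -1.83 (SE 0.65) and -1.68 (SE 0.65), gave 2.03 and 1.58 in EBs. It fell from 599 to 80.2 and 79.1 in WT EBs and from 404 to 287 and 236 in KO EBs. For the remaining cases the EB values at 8 h follow. Among transcripts lost faster in ESCs they were 0.17 for Lgr5, 0.76 for Eif3e, 0.61 for Eif2b1, 0.69 for Igf2bp2 and 1.11 for Eif1b. Lgr5, Eif3e, Eif2b1 and Igf2bp2 thus lay below the EB median of shared members, and their positive sign goes with that shared offset. Snhg8, a noncoding RNA kept longer in ESCs, gave -0.0049 in EBs.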

How the results depend on the processing

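No paired analysis was possible because each group has 1 library. Against 365 kept and 101 lost, kept and lost counts were 602 and 198 with a level floor of 150, 151 and 38 with a floor of 600, 726 and 376 at 1.5-fold, 142 and 14 at 3-fold, and 238 and 53 where the difference also had to grow from 4 h to 8 h. Lost counts were 55 on the levels as deposited and 53 with ribosomal protein scaling. With 4 h alone they were 568 and 386, with 8 h alone 853 and 321, and with counting intervals that exclude 0 at both times 205 and 48, settings chosen after seeing the data. The median difference over members moved from -0.02 to 0.17 (as deposited), 0.10 (equal totals) and 0.24 (ribosomal) at 4 h, and from 0.12 to 0.38 (as deposited) and 0.23 (ribosomal) at 8 h. Transcripts kept in both cell types numbered 149 as deposited, 212 at 1.5-fold and 115 with a floor of 150. limma's 0 higher and 0 lower calls became 5 higher as deposited, 1 with equal totals, 1 with a 5 ppm pseudocount, 38 higher and 1 lower over the members alone, and 4 higher and 1 lower with a shared curvature term. Leaving out 1 ESC library at a time gave 0 to 27 higher and 0 to 25 lower. The cause of these changes was not tested. Of named transcripts and list medians, 1494 values moved by less than their counting interval (lists, 0.1) and 176 by more. Among called values 0 changed sign, but the rule puts them at 1 or more in size, so this was hardly possible. List medians near 0 could change sign. That of the RNA decay machinery at 4 h went from -0.01 to 0.18 on the levels as deposited. Depth limits low transcripts most: a level of 300 is 9.17 to 13.1 read equivalents.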
